A study of Caenorhabditis elegans with 6 samples.

Results

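The inducible heat shock genes of Caenorhabditis elegans described here are 9 genes, chosen by symbol in the deposited table of 20473 genes. They are 6 small heat shock protein genes, hsp-16.1, hsp-16.11, hsp-16.2, hsp-16.41, hsp-16.48 and hsp-16.49, and 3 HSP70 genes, hsp-70, F44E5.4 and F44E5.5. The libraries hold RNA of entire N2 animals, the wild-type strain, after 72 h at 20 °C in diquat dibromide monohydrate: 3 control libraries at 0 µg/L and 3 diquat libraries at 100 µg/L. The herbicide diquat cycles between redox states and passes electrons to oxygen. No label says that replicates were grown separately, so a p-value here reflects only how these samples spread, which may be technical.

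Small heat shock proteins carry an alpha-crystallin domain and hold unfolding proteins so that they do not aggregate. HSP70 proteins then use ATP to refold them or pass them on for degradation. In C. elegans the transcription factor HSF-1 drives the hsp-16 and inducible HSP70 genes after heat shock, and hsp-16 reporters are widely used to read out heat and oxidative stress in living worms. Many of these genes exist as closely similar copies.

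The total count was 23390547 to 24593469 per library. CPM below is the count per total count of a library, adjusted by its TMM factor, and FPKM is the level per length that the authors deposited. By the library total alone, 3 counts equal 0.122 to 0.128 CPM, the floor for a gene listed at 0. Markers of intestine, body wall muscle, epidermis, neurons, germline and pharynx were counted in every library, with 252 counts or more for each gene. The level summed over 3 sperm markers spanned 12.302 to 15.1 CPM in control and 5.24 to 7.12 CPM in diquat libraries, and that over 3 epidermal markers was 1116 to 1386 and 791 to 1049 CPM, while the other summed marker levels overlapped between the groups. The epidermal difference lay in col-19, which averaged 1057 ± 127 CPM over the controls and 757 ± 124 CPM under diquat (SD, n = 3). Its adjusted p by edgeR was 0.280, and 1.1e-07 with library number as a block in the model. By contrast, dpy-7 and elt-3 had log2 fold changes of 0.06 and 0.13. Of the sperm markers, gsp-3 and gsp-4 were lower without the block (adjusted p = 0.0138 and 0.0182 by edgeR), and spe-11 was not tested. With the block, act-5 of intestine and unc-54 and unc-15 of body wall muscle were lower as well (edgeR adjusted p = 0.00982, 0.00264 and 0.00435). The markers elt-2, ges-1 and myo-3 of the same tissues did not pass in that fit. The part of these differences in the results below was not tested, and in whole worms fewer cells of a type and less RNA per cell cannot be told apart.

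Head-to-head arrangement was common among these genes. In the WBcel235 annotation (Ensembl release 115) hsp-16.2 (chromosome V, 1804334 to 1804957, minus strand) and hsp-16.41 (1805178 to 1805875, plus strand) start 220 bases apart and point away from each other. The other 4 hsp-16 genes lie in 1 cluster further along chromosome V. There hsp-16.1 (9087293 to 9087782, minus strand) starts 348 bases from hsp-16.48 (9088131 to 9088617, plus strand), and hsp-16.49 (9089280 to 9089766, minus strand) starts 310 bases from hsp-16.11 (9090077 to 9090604, plus strand). F44E5.4 (chromosome II, 11757107 to 11759311, minus strand) and F44E5.5 (11759662 to 11761861, plus strand) repeat the arrangement with 350 bases between their starts. hsp-70 (chromosome I, 9320325 to 9322519, minus strand) lies between exons 7 and 8 of uggt-2, a gene on the opposite strand, and overlaps none of its exons. Whether the counting used strand is not stated in any source at hand. uggt-2 had 1 to 12 counts per library, against 199 to 406 for hsp-70. All 9 genes are protein coding, and the exons of a gene add up to 432 to 640 nucleotides in the hsp-16 genes and 2057 to 2096 in the HSP70 genes.

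The copies shared their counts in 3 different ways. hsp-16.48 and hsp-16.49 were listed with equal counts and equal FPKM in 6 of 6 libraries. Whether each row holds a share of the reads or the same reads stand in both rows cannot be told apart, and any sum over both, or ratio to either, carries that limit. The annotation names both of them hsp-16.48. Equal rows were rare in the table: of 12360 genes with at least 100 counts in all, 59 (0.477%) had the same 6 counts as another gene. hsp-16.1 was listed at 0 in all 6 libraries, while hsp-16.11, which the annotation also names hsp-16.1, had 1003 to 1543 counts. F44E5.4 had 192 counts in control 2 and 0 in the other 5 libraries, while F44E5.5 had 2341 to 4705. In control 2 F44E5.4 thus took 5.96% of the counts of both copies (95% Wilson interval 5.19 to 6.83%, counting error only). In the libraries at 0 the upper bound of that interval was 0.082 to 0.164%. Whether a copy listed at 0 was not transcribed, or its reads were placed on the other copy, cannot be told apart in these counts. Values of single copies are therefore uncertain, and each copy group was also tested as a sum.

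Levels per length spanned a wide range among the 7 genes with counts in every library. hsp-16.11 stood first, with a median of 128 FPKM over the 6 libraries, followed by F44E5.5 at 55.7 FPKM and hsp-16.2 at 25.2 FPKM. hsp-16.48 and hsp-16.49 each had a median of 19.4 FPKM, hsp-16.41 of 10.2 FPKM and hsp-70 of 5.13 FPKM. The ranges of hsp-16.11 and F44E5.5 overlapped across libraries, although hsp-16.11 was above F44E5.5 in 6 of 6. Likewise hsp-16.2 overlapped with hsp-16.48 and was above it in 5 of 6 libraries, and hsp-16.41 overlapped with hsp-70 and was above it in 6 of 6. By its mean over all libraries hsp-16.11 lay above 93.0% of the 13252 genes tested, F44E5.5 above 88.2%, hsp-16.2 above 74.3%, hsp-16.41 above 52.0% and hsp-70 above 40.6%. The constitutive cytosolic HSP70 gene hsp-1 was at 1939 FPKM by the same mean and hsp-70 at 5.77 FPKM.

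**Figure D1:**
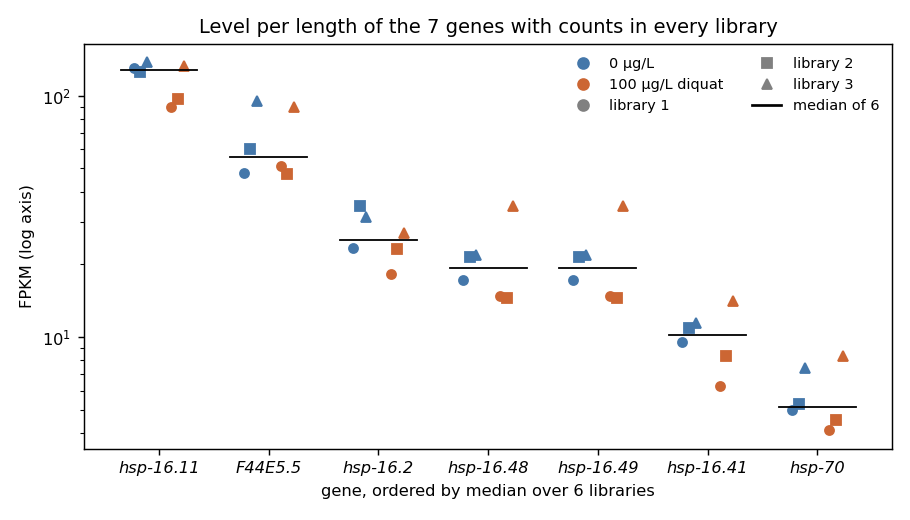
Deposited FPKM (log axis) of the 7 genes with counts in every library, ordered by the median of the 6 libraries (black line), with control libraries in blue, diquat libraries in orange and a symbol for each library number. The medians run from 128 FPKM for hsp-16.11 to 5.13 FPKM for hsp-70, and hsp-16.48 and hsp-16.49 show the same values.

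The design asks whether diquat at 100 µg/L changed the transcripts of these genes. None of the 7 genes that could be tested passed edgeR's quasi-likelihood test with Benjamini-Hochberg adjustment at 0.05, in either direction, when the library number was left out of the model. With that number as a block, which pairs each control library with the diquat library of its number, hsp-16.11 and hsp-16.2 were called lower, 2 of the 7 against 4.0% of all genes tested. Over the whole table the test without the block called 121 of 13252 genes, all of them lower with diquat, which is 0.913%. hsp-16.1 and F44E5.4 did not pass the filter on low counts and were not tested. At an unadjusted p under 0.05, 2 of the 7 were lower (hsp-16.11 and hsp-16.2) and 0 higher, against 4.68% and 1.54% of all genes tested. DESeq2 and limma-voom, both without the block, called 0 of the 7 as well. Over all genes DESeq2 called 2 higher and 156 lower, and limma-voom called 0 higher and 118 lower. The median log2 fold change was -0.16 over the 7 and 0.01 over all genes tested.

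hsp-16.11, which holds all counts of its copy group, reached 61.8, 65.3 and 62.8 CPM in control 1, 2 and 3, against 42.1, 49.2 and 57.9 CPM in diquat 1, 2 and 3. Each diquat library lay below every control library, which held in this direction for 6.68% of all genes tested and for no other of the 7. Group means were 63.3 ± 1.79 CPM for control and 49.7 ± 7.94 CPM for diquat (SD, n = 3). The log2 fold change was -0.35 (95% interval -0.62 to -0.07; adjusted p = 0.538 and unadjusted p = 0.0179 by edgeR), and with the block the adjusted p was 0.00559. Without diquat 1 the value was -0.23. The control libraries were within 1.06-fold of each other and the diquat libraries within 1.38-fold.

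hsp-16.2, the gene most used in stress reporters, had levels of 13.8, 22.4 and 17.9 CPM in control 1, 2 and 3, and of 10.6, 14.7 and 14.7 CPM in diquat 1, 2 and 3. The groups overlapped, since control 1 lay below diquat 2 and diquat 3. For hsp-16.2 the log2 fold change was -0.44 (95% interval -0.86 to -0.02; adjusted p = 0.769 by edgeR), and with the block the adjusted p was 0.0126. Leaving out control 2 gave -0.25 and leaving out diquat 1 gave -0.29. The divergent partner hsp-16.41 gave 6.09, 7.62 and 7.04 CPM in the controls, against 3.94, 5.75 and 8.23 CPM under diquat. Diquat 1 and diquat 2 lay below every control library and diquat 3 above every one, with a log2 fold change of -0.21 (95% interval -0.73 to 0.31; adjusted p = 0.872 by edgeR). That value was 0.03 without diquat 1 and -0.53 without diquat 3 (adjusted p = 0.980 and 0.773). The FPKM of hsp-16.2 was 1.93 to 3.19 times that of hsp-16.41, and the lowest ratio was that of diquat 3.

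hsp-16.48 and hsp-16.49 each stood at 7.47, 10.1 and 9.03 CPM in control 1, 2 and 3, and at 6.29, 6.70 and 13.9 CPM in diquat 1, 2 and 3. As with hsp-16.41, diquat 1 and diquat 2 lay below the control group and diquat 3 above it. Summed into 1 feature, this copy group had a log2 fold change of 0.02 (95% interval -0.55 to 0.58; adjusted p = 0.992 by edgeR), one of -0.46 when diquat 3 was left out (adjusted p = 0.627 by edgeR) and one of -0.09 when control 1 was. The FPKM of hsp-16.11 was 5.88 to 7.53 times that of hsp-16.48 in the 3 control libraries and in diquat 1 and diquat 2, but 3.795 times in diquat 3. Diquat 3 thus stood apart in the balance between the hsp-16.48 type and hsp-16.11.

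All 6 hsp-16 genes together summed to 96.6, 115.5 and 106 CPM in control 1, 2 and 3, against 69.2, 83.1 and 109 CPM in diquat 1, 2 and 3. Diquat 1 and diquat 2 lay below the control libraries, and diquat 3 lay among them. The group means were 106 ± 9.44 and 86.9 ± 20.0 CPM (SD, n = 3), and no test was made of the sum. Counting 1 of the equal rows, hsp-16.48, gave 97.1 ± 8.14 and 78.0 ± 15.96 CPM, a log2 ratio of means of -0.32 against -0.29 with both.

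**Figure D2:**
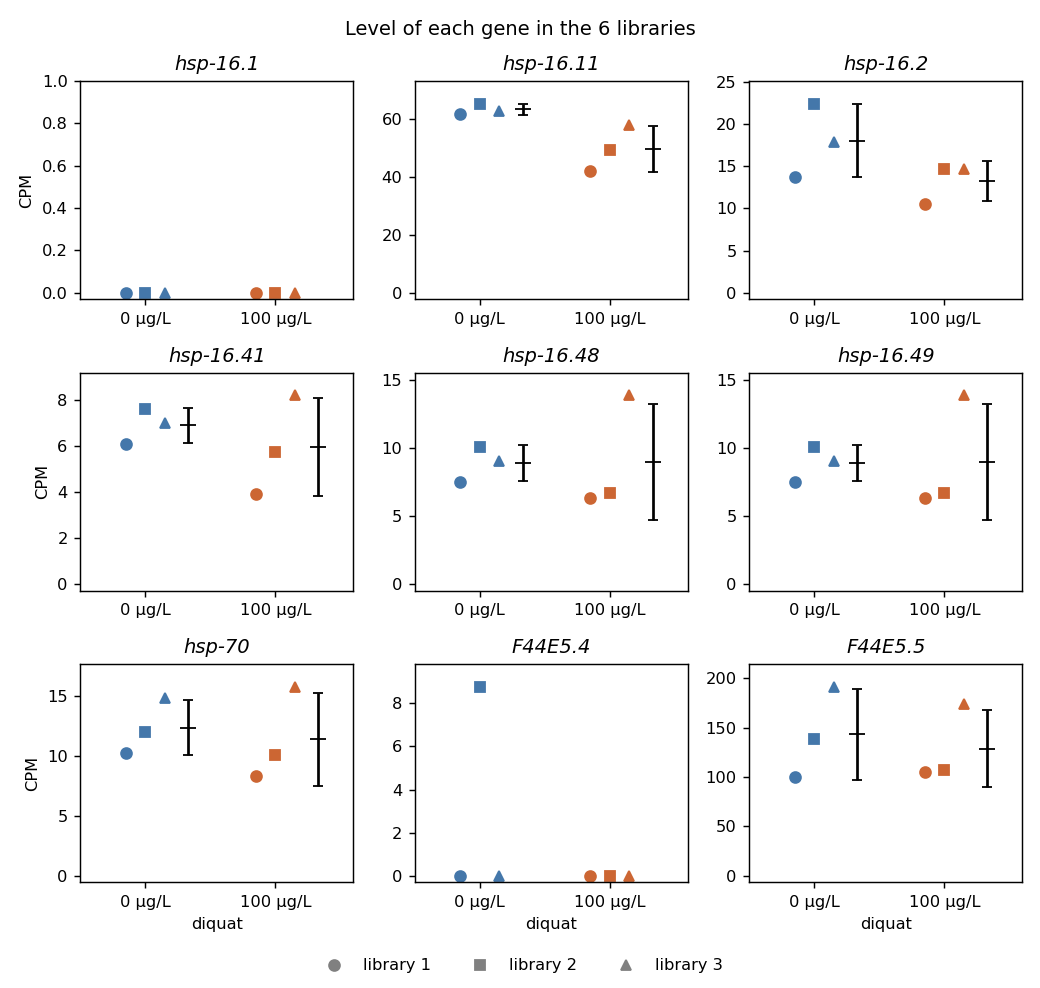
CPM of each of the 9 genes in the 3 control libraries (blue, 0 µg/L) and the 3 diquat libraries (orange, 100 µg/L), with a symbol for each library number and, for the 7 tested genes, the group mean and SD in black (n = 3). For hsp-16.41, hsp-16.48 and hsp-16.49 the diquat libraries 1 and 2 sit below the control group and diquat 3 above it, hsp-16.1 is at 0 throughout, and F44E5.4 is above 0 in control 2 only.

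Among the inducible HSP70 genes, F44E5.5 had most of the counts. Control 1, 2 and 3 held it at 100, 138 and 191 CPM, and diquat 1, 2 and 3 at 105, 107 and 174 CPM. The spread within each group exceeded the difference between the groups: the control libraries ranged over 1.91-fold and the diquat libraries over 1.65-fold, against medians of 1.29-fold and 1.31-fold over all genes tested. edgeR gave F44E5.5 a log2 fold change of -0.16 (95% interval -0.65 to 0.34; adjusted p = 0.903). With the counts of F44E5.4 added it was -0.18 (95% interval -0.68 to 0.31; adjusted p = 0.879). Without control 3 it turned to 0.14 for F44E5.5 alone (adjusted p = 0.772) and to 0.08 for the sum (adjusted p = 0.871).

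hsp-70 measured 10.3, 11.9 and 14.8 CPM in control 1, 2 and 3, and 8.35, 10.03 and 15.8 CPM in diquat 1, 2 and 3, so that the groups overlapped. Its difference was -0.12 on the log2 scale (95% interval -0.61 to 0.38; adjusted p = 0.925 by edgeR), and 0.06 without control 3 or 0.08 without diquat 1. hsp-70 and F44E5.5 had a like order of libraries, with control 3 and diquat 3 above the other libraries of their group. The FPKM of F44E5.5 was 9.60 to 12.7 times that of hsp-70, with means of 11.2 ± 1.57 in control and 11.3 ± 1.04 with diquat (SD, n = 3).

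F44E5.4 was counted 192 times in control 2 and was listed at 0 in the other 5 libraries. The authors' deposited table gives it a log2 fold change of -10.31, from a mean of 1.27 FPKM in control and 0.001 FPKM written in place of 0 with diquat, with an FDR of 1. That value rests on control 2 alone. For the other tested genes the authors' deposited table lists an FDR of 0.809 for hsp-16.11 and of 0.998 or more for the rest.

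The intervals bound how large a rise these libraries leave room for. At the upper end of the 95% interval, hsp-16.11 was at 0.953 times and hsp-16.2 at 0.988 times its control level. hsp-16.41 was at 1.24 times, F44E5.5 at 1.27 times and the summed hsp-16.48 and hsp-16.49 at 1.499 times. The intervals rest on 3 libraries a group, come from the fit without the block and are not adjusted for the number of genes.

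Within a library number the genes did not all move alike. hsp-16.11 and hsp-16.2 were lower in the diquat library than in the control library of the same number in 3 of 3 numbers. For hsp-16.11 the ratios were 0.681, 0.754 and 0.923, and for hsp-16.2 they were 0.768, 0.655 and 0.818. The ratio of hsp-16.41 was 0.647 and 0.755 for numbers 1 and 2 and 1.17 for number 3. For hsp-16.48 and hsp-16.49 it was 0.842, 0.665 and 1.53, and for hsp-70 it was 0.813, 0.840 and 1.06. F44E5.5 was the exception to this order, with ratios of 1.05, 0.772 and 0.907. Of the 7 tested genes 6 were highest in diquat 3 among the diquat libraries, where 40.8% of all genes tested were highest. In the control group 5 of the 7 were highest in control 2 and 2 in control 3. The share of all genes tested that were highest in control 3 was 37.5%, and that for control 2 was not computed. hsp-16.48 and hsp-16.49, which have equal counts, are both in the diquat 3 and the control 2 count.

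**Figure D3:**
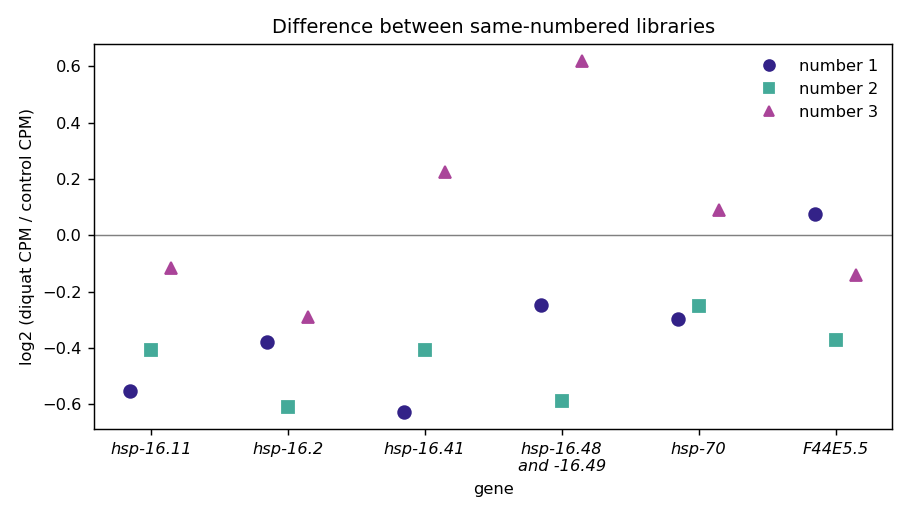
Log2 ratio of diquat CPM to control CPM for each library number (symbols and colours), with hsp-16.48 and hsp-16.49 drawn once because their values are equal. Number 3 is the highest point for each gene except F44E5.5, and hsp-16.11 and hsp-16.2 are below 0 for all 3 numbers.

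When library number entered the edgeR model as a block, hsp-16.11 and hsp-16.2 fell, and 0 of the 7 rose, against 4.51% of all genes tested. The blocked log2 fold change was -0.36 for hsp-16.11 and -0.43 for hsp-16.2. Both calls depended on the pairs of libraries used. Without pair 1 the blocked adjusted p was 0.294 and 0.0984 for the 2 genes, without pair 2 it was 0.102 and 0.182, and without pair 3 it was 0.000346 and 0.0252. With the block none of the other 5 passed, and their log2 fold changes were -0.24 for hsp-16.41, -0.04 for hsp-16.48 and hsp-16.49, -0.14 for hsp-70 and -0.15 for F44E5.5 (edgeR adjusted p = 0.422, 0.931, 0.546 and 0.228). Leaving out both libraries numbered 3 with no block, hsp-16.11 was called lower at a log2 fold change of -0.48 (adjusted p = 0.00315 by edgeR), a call made in a fit that had 304 genes lower and 202 higher. In that fit hsp-16.2 did not pass.

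Other genes of the heat shock system gave no call in the fit without the block. Of 7 tested genes for HSF-1 and its regulators, 0 passed, with a median log2 fold change of -0.01. hsf-1, which encodes the factor itself, averaged 55.5 ± 4.48 CPM over the controls and 56.0 ± 3.13 CPM under diquat (SD, n = 3; log2 fold change 0.01; 95% interval -0.24 to 0.26; adjusted p = 0.989 by edgeR). ddl-1, whose product binds HSF-1 in an inhibitory complex, had a log2 fold change of 0.12 (adjusted p = 0.901). pqm-1, a zinc finger factor that acts in counterpoint to DAF-16, had -0.33 (adjusted p = 0.538) and fell with the block (blocked adjusted p = 0.0163).

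Among 12 other small heat shock protein genes, 9 could be tested and 0 passed. Their 9 log2 fold changes all lay between -0.32 and -0.02 with a median of -0.12. hsp-12.2, one of the shortest of the family, averaged 75.5 ± 7.17 CPM over the controls and 62.8 ± 6.51 CPM under diquat (SD, n = 3; log2 fold change -0.27; adjusted p = 0.782 by edgeR), and fell with the block (blocked adjusted p = 0.0199). ZK1128.7 had a log2 fold change of -0.32 (adjusted p = 0.819 by edgeR; blocked 0.208). After removal of each library's length trend 3 of the 9 were above 0.

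Cytosolic HSP70, HSP90 and their cochaperones gave 0 calls among 14 tested genes and a median log2 fold change of 0.00. hsp-1 averaged 4016 ± 362 CPM over the controls and 3994 ± 398 CPM under diquat (SD, n = 3), with a log2 fold change of -0.01 (95% interval -0.31 to 0.29; adjusted p = 0.994 by edgeR). daf-21, the cytosolic HSP90 gene, listed in the table as hsp-90, had -0.04 (95% interval -0.35 to 0.26, adjusted p = 0.955). stc-1, which encodes an HSP70-like protein and was put in this list by symbol, had 0.39 (adjusted p = 0.819). It rose with the block (blocked adjusted p = 0.0157), and whether its product is cytosolic was not examined. chn-1, the ubiquitin ligase that works with HSP70, had 0.25 (adjusted p = 0.820; blocked 0.107).

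Organelle chaperones had 0 of 8 members past the test, with or without the block, and a median of 0.04. hsp-4, the inducible BiP of the endoplasmic reticulum, had a log2 fold change of 0.03 (95% interval -0.19 to 0.25; adjusted p = 0.962 by edgeR). hsp-6, the mitochondrial HSP70 read out as a marker of mitochondrial stress, had 0.02 (95% interval -0.25 to 0.30, adjusted p = 0.977). The J-domain genes dnj-7 and dnj-10 each had 0.23 (adjusted p = 0.819 and 0.838).

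**Figure D4:**
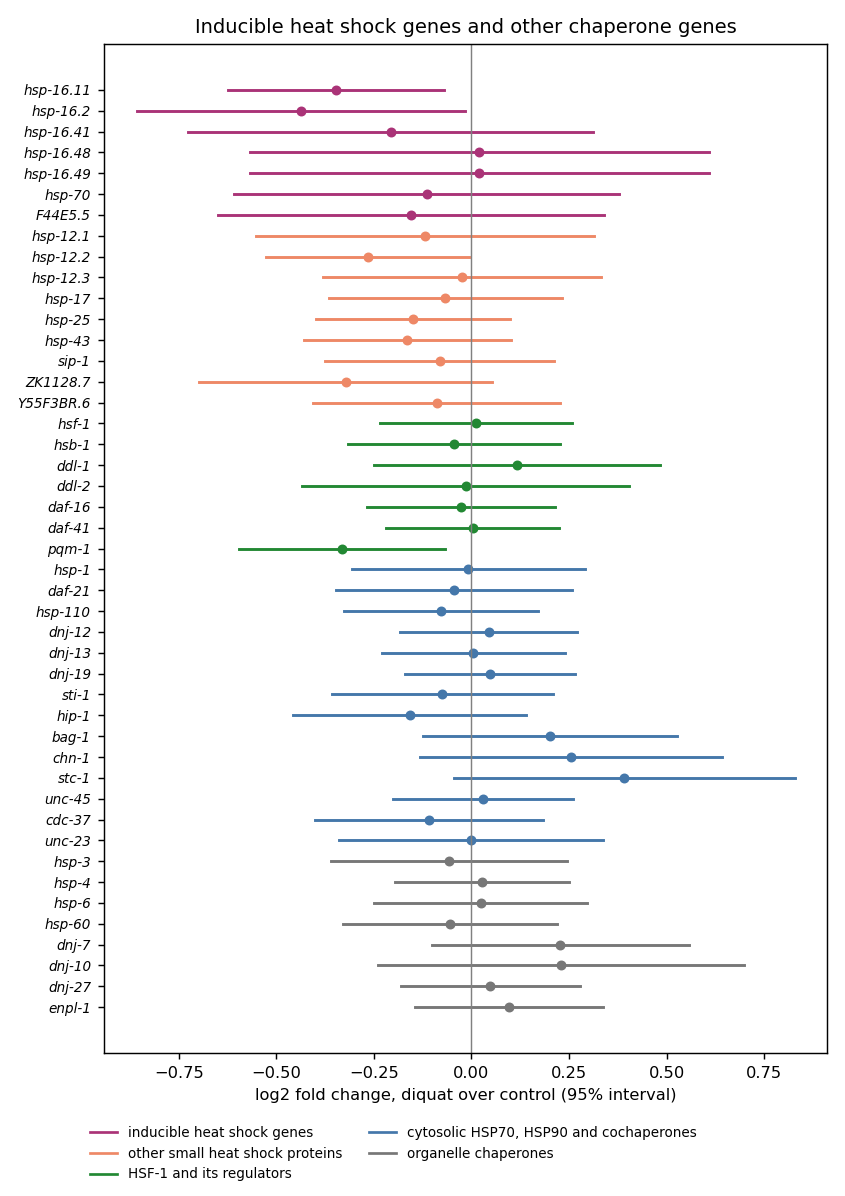
Log2 fold change of diquat over control (points) with 95% intervals (lines) from edgeR for the 7 tested inducible heat shock genes and 38 tested genes of 4 other chaperone lists, coloured by list. No gene shown passed the adjusted threshold without the replicate block, and among the inducible genes hsp-16.11 has the narrowest interval (-0.62 to -0.07) and hsp-16.48 and hsp-16.49 the widest (-0.57 to 0.61).

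The 5 genes whose pattern was most like the summed hsp-16 level, out of 12021 ranked, were F21D12.3, F41C3.2, abhd-5.1, R11A5.3 and Y73B6BL.31. Likeness was the root mean square difference between log2 CPM profiles over the 6 libraries, each centred on its mean, and it was 0.0557 for F21D12.3 to 0.0854 for Y73B6BL.31, against a median of 0.323 over the ranked genes. F21D12.3 gave 7.11, 9.03 and 8.42 CPM in the controls and 5.58, 6.89 and 8.85 CPM under diquat. Like the summed hsp-16 level, it was lowest in diquat 1 and highest in control 2. None of the 5 passed the edgeR test (adjusted p = 0.819 to 0.908).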

How the data were processed

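The authors deposited 1 table with a count and an FPKM per gene and library, per the file headers. RSEM, HISAT2, StringTie 1.3.1, fastp 0.18.0 and the build WBcel235 appear, without roles, in the submitters' processing notes. The deposited counts are whole numbers, taken as estimated counts that the authors rounded, since 94 values hold 0 beside an FPKM above 0. The log2 fold change, p-value and FDR in the table are the authors', per the file headers, and no source at hand names their test.

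Counts of all genes were tested with edgeR 4.0.16 (R 4.3.3): TMM, default expression filter, robust quasi-likelihood F-test, Benjamini-Hochberg over all genes tested, threshold 0.05. The 95% intervals use approximate standard errors, the fold change over the root of F. Alternatives used DESeq2 1.42.0 and limma 3.58.1. The scripts were tested on simulated data. The genes and lists were chosen with earlier results of these data known, and 41 of 42 listed symbols matched the table (hsf-2 did not). Named genes were all 9 genes, hsf-1, hsp-1, daf-21, hsp-4, hsp-6, the 2 smallest p-values of each list and the 5 most alike profiles. No libraries of a group agreed within sampling noise. Same-numbered libraries, numbered so in the labels, deviated together from their group means (correlations 0.155, 0.200 and 0.459 across genes, all above 0.1). The fit with the block therefore took the numbers as pairs. The fit without the block, which gave the main results and the 95% intervals of fold changes, left them out. Control 1 correlated more with diquat 2 (0.208). Wilson intervals and the floor of 3 counts cover counting error alone. Sequences were not used here.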

Additional observations from a re-analysis of the deposited data

How the results depend on the processing

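Of the inducible heat shock genes, 0 were called lower without the replicate block and 2 with it. With that block plus removal of each library's length trend 3 were, F44E5.5 joining hsp-16.11 and hsp-16.2 (adjusted p = 0.0114 by edgeR). In settings chosen after seeing the data, 2 were called with the block but without pair 3, 0 with it but without pair 1 or pair 2, and 1 without both libraries numbered 3. None was called higher in any setting tried. For the blocked fits without a pair, calls over all genes were not counted. Over all genes the replicate block gave 598 higher and 530 lower, the block with the trend removed 449 and 812, and the fit without both libraries numbered 3 gave 202 and 304. Genes called higher numbered 2 without an expression filter, 2 with DESeq2 and 1 with the length trend removed. Leaving out 1 library at a time gave 0 to 1 higher and 27 to 116 lower.

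The values of hsp-16.11 and hsp-16.2 stayed below 0 in all 19 settings, between -0.49 and -0.21 and between -0.60 and -0.25. With each library's length trend removed and no block, hsp-16.11 was at -0.21 and hsp-16.2 at -0.35 (adjusted p = 0.869 for both by edgeR). In that fit hsp-16.48 was at 0.17. The sum of hsp-16.1 and hsp-16.11 was -0.36 with the replicate block and -0.49 to -0.23 with 1 library left out. For hsp-16.48, and equally hsp-16.49, the log2 fold change turned to -0.054 with limma-voom, -0.039 with the replicate block, -0.034 and -0.029 with limma on log2 FPKM plus 0.1 and plus 1, and -0.42 with the block without pair 3. With 1 library left out it lay between -0.46 and 0.24, as did the sum of the copies, which was -0.045 with the replicate block. The same range was -0.53 to 0.033 for hsp-16.41, -0.44 to 0.078 for hsp-70, -0.45 to 0.14 for F44E5.5 and -0.48 to 0.085 for the sum of F44E5.4 and F44E5.5. None of these turned values passed the test, and the cause was not tested. Of the 38 tested genes in the other lists 1 was higher and 2 were lower with the replicate block, against 4.51% and 4.0% of all genes tested. Counts of 94 to 357 per library for hsp-16.41 and hsp-16.48, and 3 libraries a group, limit what these comparisons can resolve.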
